A study of Mus musculus with 9 samples.

Results

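Hair keratins, the keratins and partner proteins of the inner root sheath, and the regulators that act beside them were followed through mouse back skin that had no IMQ cream, treated with imiquimod (IMQ), or treated with IMQ plus Longkui Yinxiao soup (LYS). The set was a fixed list of 36 gene names, of which 35 were found among the 29205 genes of the deposited table, and 1 of the 36 was not analysed here. The 35 comprised 8 inner root sheath keratins, 1 companion layer keratin, 9 type I and 5 type II hair shaft keratins, 5 structural and enzyme genes, and 7 regulators of transcription. All 35 were examined in all 9 libraries.

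A growing hair is built in concentric layers above the matrix, a pool of dividing cells at the base of the follicle that surrounds the dermal papilla. The inner root sheath is the rigid tube that moulds the shaft as it rises. It has keratins of its own, with trichohyalin packed between them, and the companion layer lies between it and the outer root sheath. The cortex and cuticle of the shaft are filled with hair keratins, each filament pairing an acidic type I with a basic type II keratin, and keratin-associated proteins crosslink them. Most of these genes are read mainly while the follicle grows, in anagen, and little while it rests, in telogen, so their RNA in whole skin follows how much growing follicle a sample holds as well as how strongly each cell transcribes them.

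The mice were male BALB/c, 6 to 8 weeks old, and every animal, controls included, had its back shaved and cleared with depilatory cream after 7 days of adaptation. The control group had no IMQ cream and is labelled blank. The IMQ group received 62.5 mg of 5% IMQ cream a day on 5 consecutive days, which raises a psoriasis-like inflammation of the skin. The LYS-High group received the same cream and LYS, a herbal decoction given by mouth, which the study's methods identify as the higher of its doses. Back skin was collected on day 13 and sequenced as bulk RNA, 3 libraries a group. The labels do not tie a library to an animal, so the p-values below measure the spread between these libraries.

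The libraries held 14658645 to 19609878 counts. Levels are given as counts, as counts scaled to library size by the TMM method (CPM) and, where genes are compared with each other, as the deposited FPKM, which divides by gene length. The test was edgeR's quasi-likelihood test. A gene was called higher or lower when its Benjamini-Hochberg adjusted p was under 0.05 and its log2 fold change was beyond 0.58 in either direction. Skin markers were present in every library. Their balance differed between groups: the summed level of 7 epidermal keratinocyte genes spanned 5159 to 8611 CPM in the control group, 39444 to 59856 in the IMQ group and 16312 to 31175 in the LYS-High group, and that of 6 fibroblast genes spanned 21497 to 27354, 3277 to 10536 and 9016 to 17415 CPM. The part of these shifts in the results below was not tested. In bulk skin, fewer cells of a type and less RNA per cell cannot be told apart.

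The upstream sequences of the keratins are shown first, because several of the keratins share features there that the choice of genes did not use. RefSeq promoter windows (GRCm38.p6, 250 bases before to 50 after the start) matched 23 of the 35 genes, 17 of them keratins. TATAAA, the core of the TATA box, occurred in the 250 upstream bases on either strand for 13 of these 17 keratins, against 12.4% of 32851 windows of the same length. Read on the gene's own strand and lying wholly in the stretch from 45 to 15 bases before the start, it occurred in 9 of 17 (Krt25, Krt26, Krt28, Krt71, Krt73, Krt31, Krt32, Krt34 and Krt40), against 2.14% of all windows. In Krt25, Krt26, Krt28 and Krt73 its first base lay 30 bases before the start. Several of these keratins are related neighbours in the same gene cluster, so matches among them, here and below, are not independent observations. The stretches below run 5′ to 3′ on the gene's strand, here the minus strand, and end at the base before the start. Capitals mark TATAAA on the gene's strand, CTTTGAA on either strand, the sequence read by LEF1 and TCF factors of the Wnt pathway, and TAATTG on either strand, a core read by many homeodomain proteins (CAATTA where it lies on the other strand). The first set holds inner root sheath keratins, with Krt71 as the most abundant of them. Krt27 and Krt72 of this class also had windows, without TATAAA in that stretch, and are not printed.
Krt25, chr11:99322952-99323201: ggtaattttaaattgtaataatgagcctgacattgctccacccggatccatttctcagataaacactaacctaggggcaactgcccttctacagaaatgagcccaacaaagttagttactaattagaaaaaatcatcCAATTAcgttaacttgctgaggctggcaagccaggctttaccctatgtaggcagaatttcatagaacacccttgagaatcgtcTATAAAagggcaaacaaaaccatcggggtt
Krt26, chr11:99337966-99338215: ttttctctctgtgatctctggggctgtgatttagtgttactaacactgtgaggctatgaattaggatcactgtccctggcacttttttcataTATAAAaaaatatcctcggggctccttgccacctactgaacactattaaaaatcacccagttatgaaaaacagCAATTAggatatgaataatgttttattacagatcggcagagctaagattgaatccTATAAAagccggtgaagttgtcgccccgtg
Krt28, chr11:99374904-99375153: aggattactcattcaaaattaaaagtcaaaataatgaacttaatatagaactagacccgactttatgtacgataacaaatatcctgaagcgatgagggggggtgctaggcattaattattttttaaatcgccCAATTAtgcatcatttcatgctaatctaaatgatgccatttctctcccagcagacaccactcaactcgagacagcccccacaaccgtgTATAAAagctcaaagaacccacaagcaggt
Krt71, chr15:101743098-101743347: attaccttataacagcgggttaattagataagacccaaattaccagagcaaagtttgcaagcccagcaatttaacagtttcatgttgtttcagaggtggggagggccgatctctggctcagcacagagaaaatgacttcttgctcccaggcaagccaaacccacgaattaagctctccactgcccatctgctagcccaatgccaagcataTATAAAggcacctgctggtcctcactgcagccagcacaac
Krt73, chr15:101802361-101802610: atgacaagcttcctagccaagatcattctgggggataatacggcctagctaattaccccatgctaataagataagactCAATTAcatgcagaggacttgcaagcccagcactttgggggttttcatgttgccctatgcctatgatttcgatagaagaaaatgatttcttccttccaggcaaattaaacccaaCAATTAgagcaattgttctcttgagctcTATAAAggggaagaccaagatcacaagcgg

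The second set holds 4 neighbouring type I shaft keratins, and Krt84, the type II shaft keratin that rose in IMQ skin.
Krt31, chr11:100050552-100050801: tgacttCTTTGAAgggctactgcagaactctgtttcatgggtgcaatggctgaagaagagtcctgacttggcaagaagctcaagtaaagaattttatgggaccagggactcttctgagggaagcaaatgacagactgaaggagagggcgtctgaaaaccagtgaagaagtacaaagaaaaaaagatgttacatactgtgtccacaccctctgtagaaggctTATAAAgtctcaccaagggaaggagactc
Krt32, chr11:100088270-100088519: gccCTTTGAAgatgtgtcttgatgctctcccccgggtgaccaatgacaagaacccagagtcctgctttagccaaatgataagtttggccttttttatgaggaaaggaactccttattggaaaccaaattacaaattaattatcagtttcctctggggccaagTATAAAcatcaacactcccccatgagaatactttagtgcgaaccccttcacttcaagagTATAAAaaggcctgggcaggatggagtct
Krt33b, chr11:100029869-100030118: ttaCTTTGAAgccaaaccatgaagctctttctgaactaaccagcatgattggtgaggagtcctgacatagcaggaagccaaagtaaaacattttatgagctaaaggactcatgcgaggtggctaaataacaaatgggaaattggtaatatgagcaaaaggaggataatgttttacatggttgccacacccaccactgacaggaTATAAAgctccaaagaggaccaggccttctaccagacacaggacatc
Krt34, chr11:100041555-100041804: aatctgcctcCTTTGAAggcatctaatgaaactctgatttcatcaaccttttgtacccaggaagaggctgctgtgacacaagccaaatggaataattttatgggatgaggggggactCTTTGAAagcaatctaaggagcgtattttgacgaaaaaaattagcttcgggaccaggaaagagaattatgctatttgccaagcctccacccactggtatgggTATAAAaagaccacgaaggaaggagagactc
Krt84, chr15:101532821-101533070: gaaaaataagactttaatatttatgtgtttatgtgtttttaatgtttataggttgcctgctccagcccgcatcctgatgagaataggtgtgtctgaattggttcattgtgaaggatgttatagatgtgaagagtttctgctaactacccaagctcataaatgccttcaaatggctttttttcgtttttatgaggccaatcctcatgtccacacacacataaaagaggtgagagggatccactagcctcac

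TAATTG was found in 4 keratins, Krt25, Krt26, Krt28 and Krt73, and in S100a3, each keratin match being on the opposite strand, against 7.17% of all windows. CTTTGAA or CTTTGAT was found in 5 type I shaft keratins (Krt31, Krt32, Krt33b, Krt34 and Krt39), in Tchh and in S100a3, against 7.48%. In Krt31, Krt32, Krt33b and Krt34 a CTTTGAA on the gene's strand began 244, 247, 247 and 240 bases before the start. These 4 genes are close relatives, so their shared positions are not 4 independent observations. GACGC, which holds the core read by FOXN1 and its relatives, was in 4 of 23 genes against 22.6%, and CATGTG or CAAGTG, E-box-type sequences, in 3 of 23 against 22.3%. Matches of different motifs did not overlap in these windows. Krt84 held TATAAA only on the opposite strand. These are letter matches in 1 window per start site and say nothing of binding. The 23 genes had 26 windows, because S100a3 had several, and its matches came from different ones. A gene counted when any of its windows matched, while each percentage is a share of single windows.

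The comparison of the IMQ group with the control group asks what the psoriasis-like state did to these genes. In IMQ skin, 27 hair genes fell and 3 rose, and for the inner root sheath keratins almost no counts were left. All 35 genes together took 0.325 to 0.753% of a control library's counts and 0.0153 to 0.0194% of an IMQ library's. Of the 35, 32 had enough counts for a test. The calls stood against 51.0% of all 15976 genes tested that were called in either direction, 26.9% lower and 24.1% higher. Dlx3 and Krt83 were tested and not called, and Krt39, Krt40 and Krt74 were not tested. The median log2 fold change over the 32 was -6.05, or -5.27 with the 7 genes at 0 in all IMQ libraries set to a floor of 3 counts over the group, against -0.06 over all genes tested. Many of the 32 passed the filter on low counts through the control libraries alone, so the count and the median describe the set and are not support for a change. Control and IMQ libraries were apart in CPM for 30 of the 32, against 70.0% of all genes tested, and the same limit holds for this count.

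**Figure D1:**
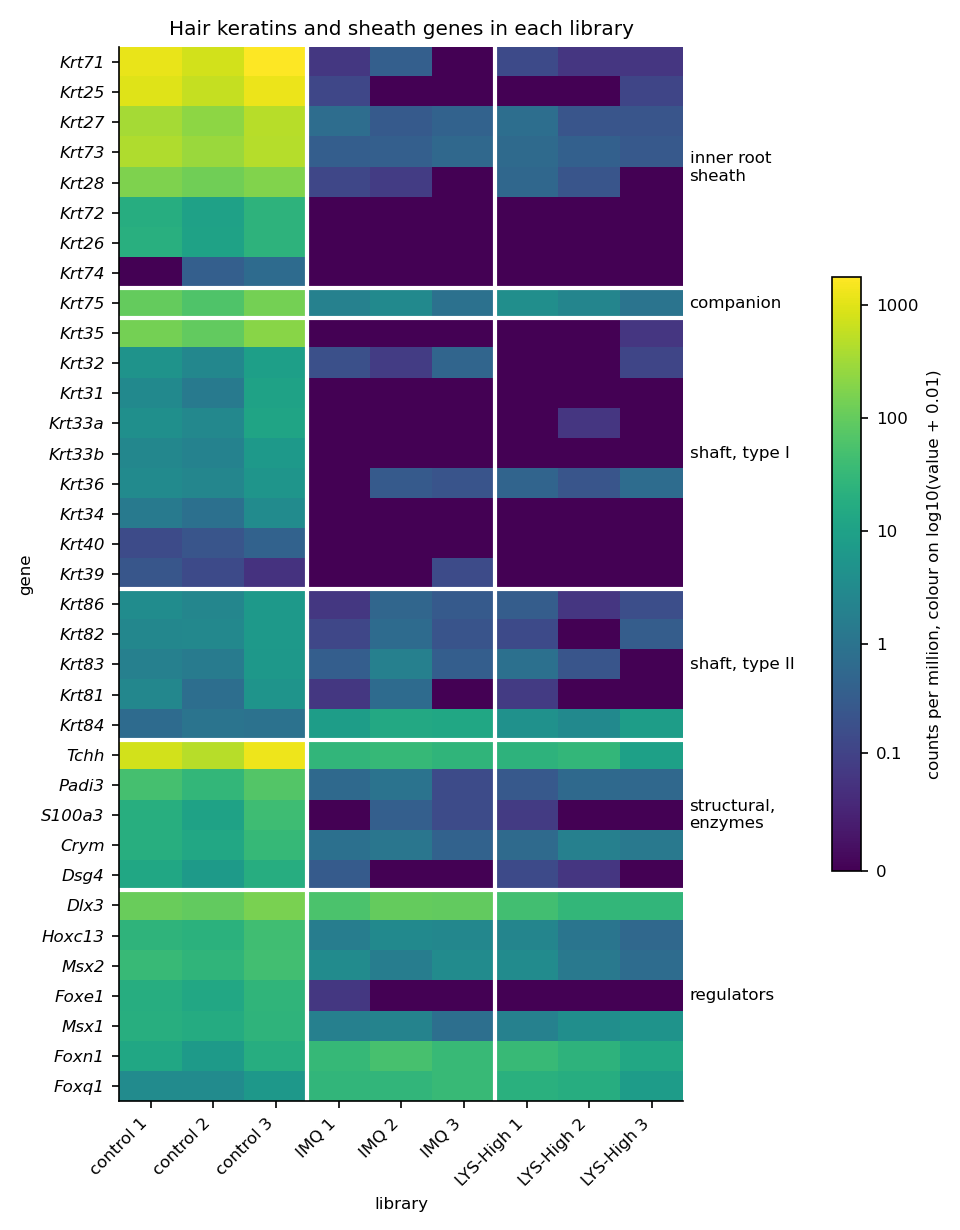
Level of each of the 35 genes (rows, by class and then by control level) in each of the 9 libraries (columns), in CPM, coloured on a log10(value + 0.01) scale; white lines part the classes and the groups. The inner root sheath rows are darker in IMQ than in control, with Krt71, Krt25 and Krt27 among the brightest rows in control, and Krt84, Foxn1 and Foxq1 are brighter in IMQ than in control.

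Among the 8 inner root sheath keratins, 7 fell and Krt74 was not tested. Together they summed to 1803, 1124 and 2451 FPKM in control 1, 2 and 3 and to 0.734, 0.458 and 0.447 FPKM in IMQ 1, 2 and 3, so that the IMQ group held 0.0305% of the control mean. No member of this class had more than 12 counts in an IMQ library.

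Krt71 (ENSMUSG00000051879, chromosome 15, 101733949 to 101743109), a type II keratin of all layers of the inner root sheath, ranked 43rd of all genes by control FPKM. It had 24740, 16723 and 35876 counts in the control libraries and 1, 5 and 0 in the IMQ libraries. The ratio of the group levels was 8925 (exact counting interval 4100.4 to 24321), and the fit gave -13.07 on the log2 scale (standard error 0.66, edgeR adjusted p = 9.1e-06). Its type I neighbour in the sheath, Krt25 (ENSMUSG00000035831, chromosome 11, 99315516 to 99322951), had 20525, 13088 and 24610 counts in control and 2, 0 and 0 in IMQ skin. On those 2 counts its ratio was 20158 (5579.9 to 166451). Krt27 (chromosome 11, 99345565 to 99351104), another type I sheath keratin, had 7181, 4775 and 9778 counts in control and 12, 4 and 6 in IMQ, which is a ratio of 684 (452 to 1092). For none of the 3 did the control and IMQ libraries overlap, and the intervals cover counting error only.

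Krt73, a keratin of the sheath cuticle, and Krt28 gave ratios of 881 (564 to 1464) and 2266 (775 to 10989), the latter on 3 counts in the IMQ group. Krt26 and Krt72, which belong to the sheath cuticle as well, were at 0 in all IMQ libraries, which places them at least 263-fold and at least 255-fold lower. Krt74, annotated in GENCODE M21 as a transcribed unitary pseudogene, had 0, 8 and 14 counts in control and none in IMQ. Levels per gene length were uneven within the class: in control, Krt71 and Krt25 had 657 ± 285 and 542 ± 194 FPKM (SD, n = 3), Krt27, Krt73 and Krt28 260 ± 105, 206 ± 54.6 and 111 ± 22.4, and Krt72 and Krt26 10.3 ± 4.62 and 5.77 ± 2.42. The control ranges of neighbours in this order overlapped, except between Krt73 and Krt28 and between Krt28 and Krt72.

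**Figure D2:**
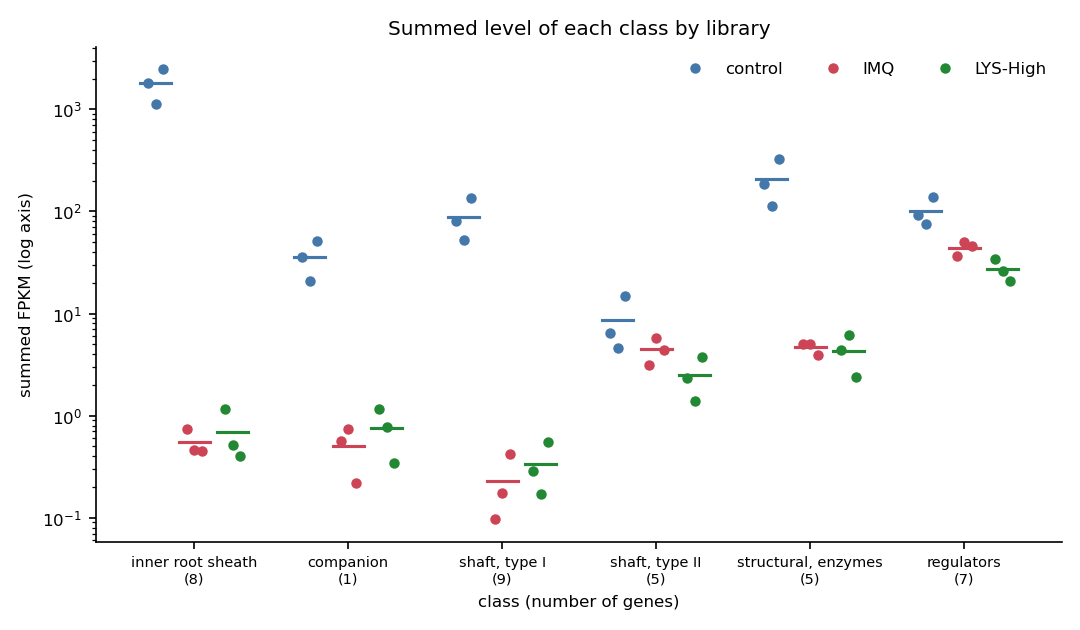
Summed FPKM of each class (x axis, number of genes in parentheses) in each library (points, log y axis), with the mean of each group as a bar. Inner root sheath keratins lie at 1124 to 2451 FPKM in control and at 0.400 to 1.17 FPKM in the IMQ and LYS-High libraries, while the regulators lie at 20.6 to 137 FPKM over all 9.

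Krt75 (chromosome 15, 101563345 to 101573904), the type II keratin of the companion layer, had 2124, 1337 and 2862 counts in control and 33, 41 and 12 in IMQ skin. It fell by 5.68 on the log2 scale (standard error 0.45, edgeR adjusted p = 4.0e-05). The control and IMQ libraries did not overlap, and unlike most sheath keratins it kept some counts in every IMQ library.

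The 9 type I shaft keratins started from a lower level. Of them 7 fell, and Krt39 and Krt40, keratins of the shaft cuticle with 9 and 17 counts over the 3 control libraries, were not tested. Their sum was 89.1 ± 42.6 FPKM in control and 0.230 ± 0.168 FPKM in IMQ skin. Krt35 (ENSMUSG00000048013, chromosome 11, 100092193 to 100096241), made early in shaft differentiation, had 2895, 2062 and 4232 counts in control and none in IMQ 1, 2 or 3. It was at least 2121-fold lower. At 71.2 ± 29.8 FPKM it made up most of the class in control, where the next, Krt32, had 3.81 ± 2.44.

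Krt32, of the shaft cuticle, had 102, 57 and 191 counts in control and 3, 1 and 7 in IMQ, a fall of 4.44 on the log2 scale (standard error 0.69, edgeR adjusted p = 0.00093). The cortex keratin Krt31 had 63, 29 and 216 counts in control and 0 in every IMQ library, at least 71.1-fold lower. Krt33a, Krt33b and Krt34, its neighbours in the cortex, were also at 0 in IMQ skin, at least 87.0-fold, 53.5-fold and 26.8-fold lower. Krt36 fell from 230 counts over the control group to 7 over the IMQ group, a ratio of 22.8 (10.9 to 57.2). Reads can be split among these relatives: 17.5% of the 100-base stretches of Krt34, 14.0% of those of Krt31, 9.99% of Krt33a and 4.0% of Krt33b also occur in other genes.

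In the type II shaft class, 3 keratins fell (Krt81, Krt82 and Krt86), Krt83 was not called and Krt84 rose. Krt86, a cortex keratin, had 74, 55 and 132 counts in control and 1, 7 and 4 in IMQ skin, and fell by 3.88 on the log2 scale (standard error 0.62, edgeR adjusted p = 0.0010). Krt82, of the cuticle, had 248 counts over the control group and 14 over the IMQ group. Krt81 had 54, 17 and 104 counts in control and 1, 9 and 0 in IMQ. Its call was lost without control 3, where its log2 fold change was -2.83 and its edgeR adjusted p 0.055. Krt81 and Krt86 share 25.0% and 24.6% of their 100-base stretches, so reads may move between this pair. Krt83 had 40, 33 and 127 counts in control and 6, 26 and 5 in IMQ skin. IMQ 2 overlapped the control libraries in CPM, and the fitted log2 fold change of -1.89 had an edgeR adjusted p of 0.064, against 0.033 with DESeq2 and 0.019 without IMQ 2.

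Krt84 (ENSMUSG00000044294, chromosome 15, 101525026 to 101532820), a keratin best known from the filiform papillae of the tongue, went the other way. It had 14, 22 and 19 counts in control and 134, 192 and 181 in IMQ skin. Every IMQ library stood above every control library. In CPM it rose from 0.873 ± 0.176 to 11.9 ± 3.30 (SD, n = 3), or 3.74 on the log2 scale (standard error 0.31, edgeR adjusted p = 4.6e-05). The sum over the type II shaft class, Krt84 included, was 8.65 ± 5.49 FPKM in control and 4.45 ± 1.35 FPKM in IMQ skin, 51.4% of control, or 90.7% in TMM-scaled CPM and 80.6% in FPKM without control 3. Of these sums Krt84 supplied 0.379 ± 0.0749 FPKM in control and 3.72 ± 0.783 FPKM in IMQ skin.

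**Figure D3:**
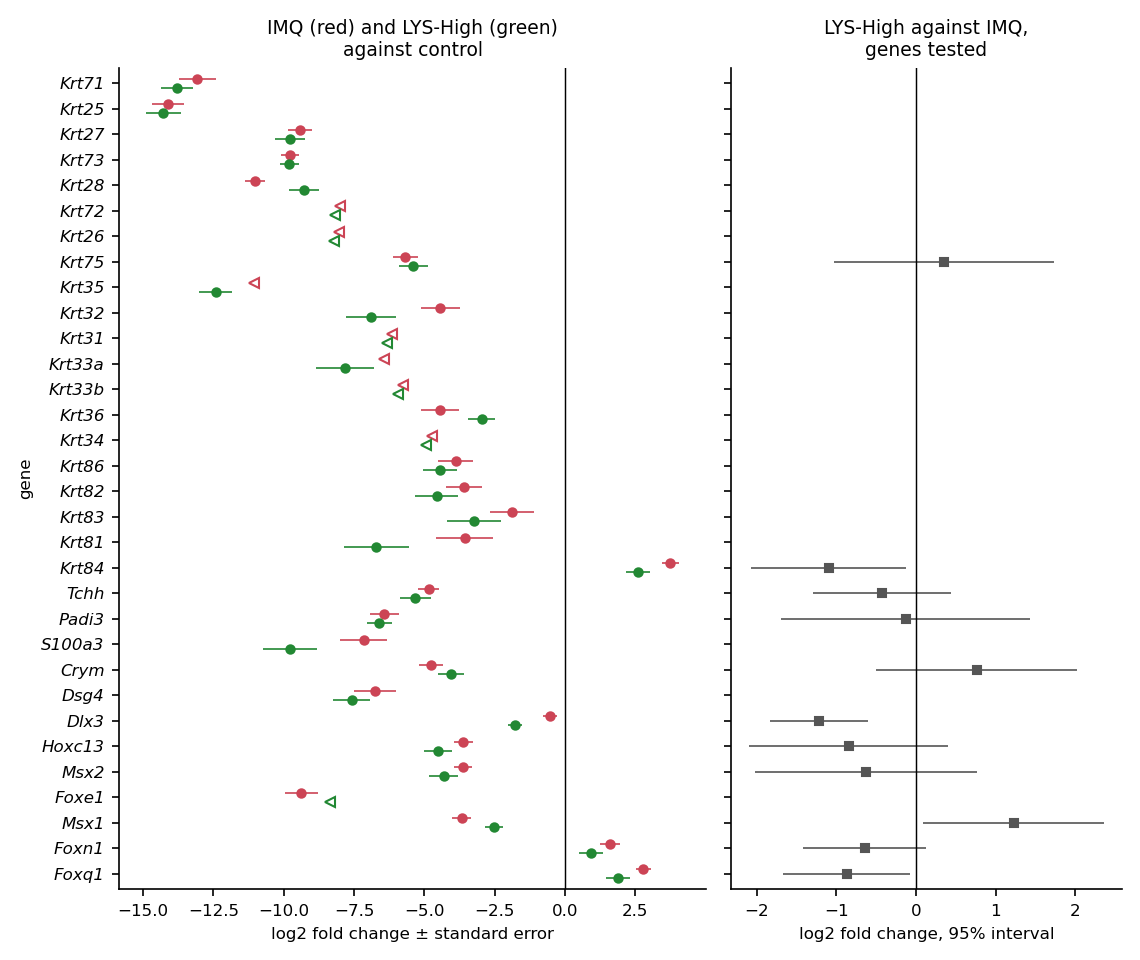
Left, fitted log2 fold change with its standard error for each tested gene, IMQ against control in red and LYS-High against control in green, with open triangles at the bound for genes at 0 in the treated group. Right, log2 fold change of LYS-High against IMQ with its 95% interval for the 11 genes tested. Left of zero lie all keratins but Krt84, and the red and green points share the control libraries.

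All 5 structural and enzyme genes fell. Tchh (chromosome 3, 93442330 to 93449077) encodes trichohyalin, the protein that hardens the inner root sheath and the medulla. It had 15729, 10467 and 26441 counts in control and 474, 441 and 369 in IMQ skin, a fall of 4.85 on the log2 scale (standard error 0.38, edgeR adjusted p = 3.9e-05). The groups did not overlap, yet Tchh retained 4.24 ± 0.431 FPKM in IMQ skin, more than the 8 sheath keratins together. Padi3 (chromosome 4, 140785365 to 140810648), the enzyme that turns arginines of trichohyalin into citrulline, had 1020, 634 and 1429 counts in control and 10, 13 and 2 in IMQ, a ratio of 85.4 (57.7 to 132). S100a3, a calcium-binding protein of the hair cuticle, had 402, 222 and 860 counts in control and 0, 5 and 2 in IMQ, a ratio of 147 (71.1 to 366). Dsg4, the desmosomal cadherin of the shaft, fell from 810 counts over the control group to 5, and Crym, which encodes mu-crystallin, a thyroid hormone-binding protein, from 1367 to 35.

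The 7 regulators divided. Msx1, Msx2, Hoxc13 and Foxe1 fell, Foxn1 and Foxq1 rose, and Dlx3 was not called. Msx2 (chromosome 13, 53466884 to 53473074), a homeodomain protein of the matrix needed for a lasting hair coat, had 697, 581 and 910 counts in control and 56, 22 and 46 in IMQ skin. Its relative Msx1 had 401, 371 and 528 counts in control and 31, 29 and 11 in IMQ. Hoxc13 (chromosome 15, 102921103 to 102928814), which drives hair keratin genes in the shaft, had 543, 479 and 870 counts in control and 27, 42 and 37 in IMQ. None of the 3 overlapped between groups, and their log2 fold changes lay close together, at -3.63 (standard error 0.31) for Msx2, -3.68 (0.33) for Msx1 and -3.62 (0.33) for Hoxc13, with edgeR adjusted p of 5.5e-05, 6.9e-05 and 7.5e-05. Foxe1, a forkhead factor of the follicle downgrowth, had 379, 303 and 560 counts in control and 1, 0 and 0 in IMQ, a ratio of 860.0 (154 to 33995) on that 1 count.

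Foxn1 (ENSMUSG00000002057, chromosome 11, 78357577 to 78386558) is the factor lost in nude mice, where hair shafts fail, and it is made in differentiating epidermis as well. It had 272, 152 and 383 counts in control and 534, 695 and 464 in IMQ skin, and every IMQ library stood above every control library. In CPM it rose from 12.9 ± 5.82 to 39.4 ± 10.7, or 1.59 on the log2 scale (standard error 0.34, edgeR adjusted p = 0.0043). Foxq1 (chromosome 13, 31556134 to 31560976), the gene of the satin coat, which acts in the medulla, had 71, 72 and 129 counts in control and 454, 380 and 472 in IMQ. It rose by 2.78 on the log2 scale (standard error 0.27, edgeR adjusted p = 9.7e-05). In GENCODE M21, 66.1% of the exon bases of Foxq1 are overlapped by a gene on the opposite strand, and whether the counting used strand is not given in the sources used here. Both rises, and that of Krt84, held under each scaling tried.

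Dlx3 (chromosome 11, 95120119 to 95125296), a homeodomain protein of the inner root sheath and shaft precursors that the upper epidermis also makes, had 2305, 2090 and 3133 counts in control and 945, 1346 and 1294 in IMQ skin. The CPM of the groups overlapped, and the log2 fold change was -0.53 (95% interval -1.08 to 0.03, edgeR adjusted p = 0.091). Scaled by library totals without TMM it was called lower, at -1.001 (edgeR adjusted p = 0.0060). That scaling also moved the median over all genes from -0.06 to -0.51, so both values of Dlx3 stand against a different centre. The regulators as a class summed to 43.4% of the control FPKM in IMQ skin, or 66.0% in TMM-scaled CPM.

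**Figure D4:**
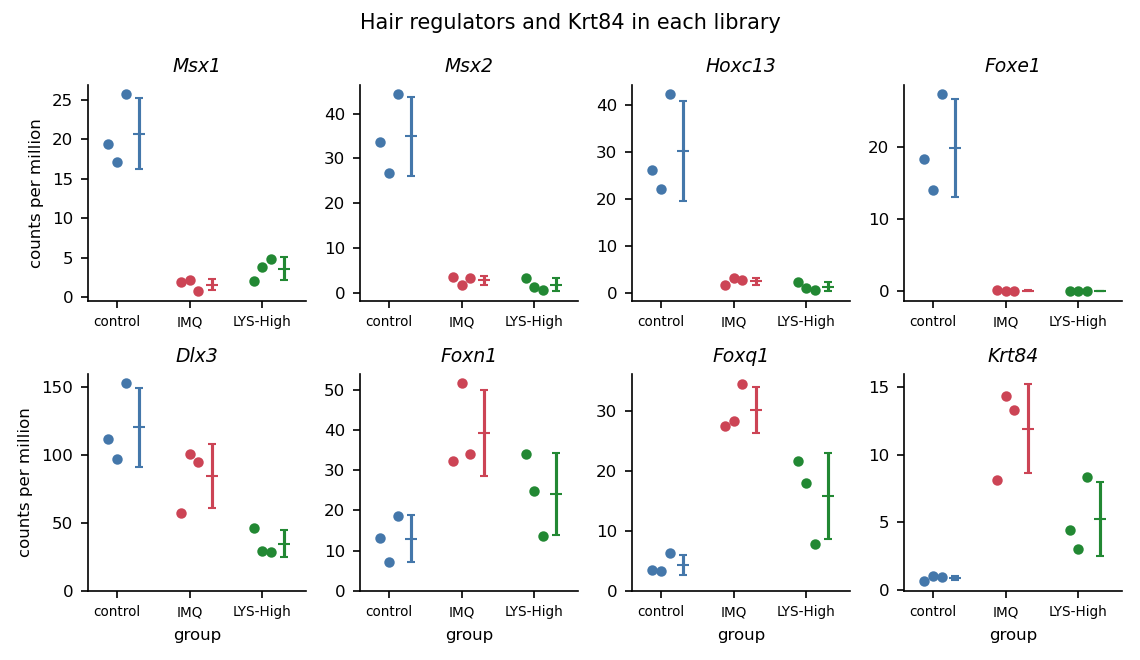
CPM of the 7 regulators and Krt84 in each library (points), with the mean and SD of each group (bar, n = 3) beside them and y axes starting at or just under 0. The IMQ points lie below control for Msx1, Msx2, Hoxc13 and Foxe1, above control for Foxn1, Foxq1 and Krt84, and overlap control for Dlx3.

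The keratin genes sit in a pair of clusters, type I on chromosome 11 and type II on chromosome 15, where hair and epidermal keratins are neighbours. On chromosome 11, all 11 hair keratins tested fell, and of 9 other keratins tested 5 rose and 4 fell. On chromosome 15, 7 of 9 hair keratins tested fell and 1 rose, and of 11 others 6 rose and 5 fell. Outside the hair set, 20 of 31 keratins were tested, of which 11 rose and 9 fell, against 24.1% and 26.9% of all genes tested. Basal Krt14 rose from 896 ± 217 to 7579.6 ± 827 CPM, suprabasal Krt10 from 1848 ± 713 to 12263 ± 3750.3 CPM, and the injury keratin Krt16 from 44.6 ± 24.5 to 5703 ± 1145 CPM. Of those that fell, 3 were named after their values were seen. The epidermal keratins Krt2 and Krt77 fell from 20.8 ± 7.76 to 0.0695 ± 0.00760 CPM and from 655 ± 246 to 4.66 ± 1.73 CPM. Krt87, a hair-type keratin outside the set, had 121, 73 and 267 counts in control and none in IMQ skin. The block Krt25 to Krt28 fell beside Krt10, and Krt75 fell beside Krt6b, which rose. Other neighbours moved together: Krt90, on the other side of Krt75, fell by 2.27 on the log2 scale, and Krt2, beside Krt73, also fell.

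**Figure D5:**
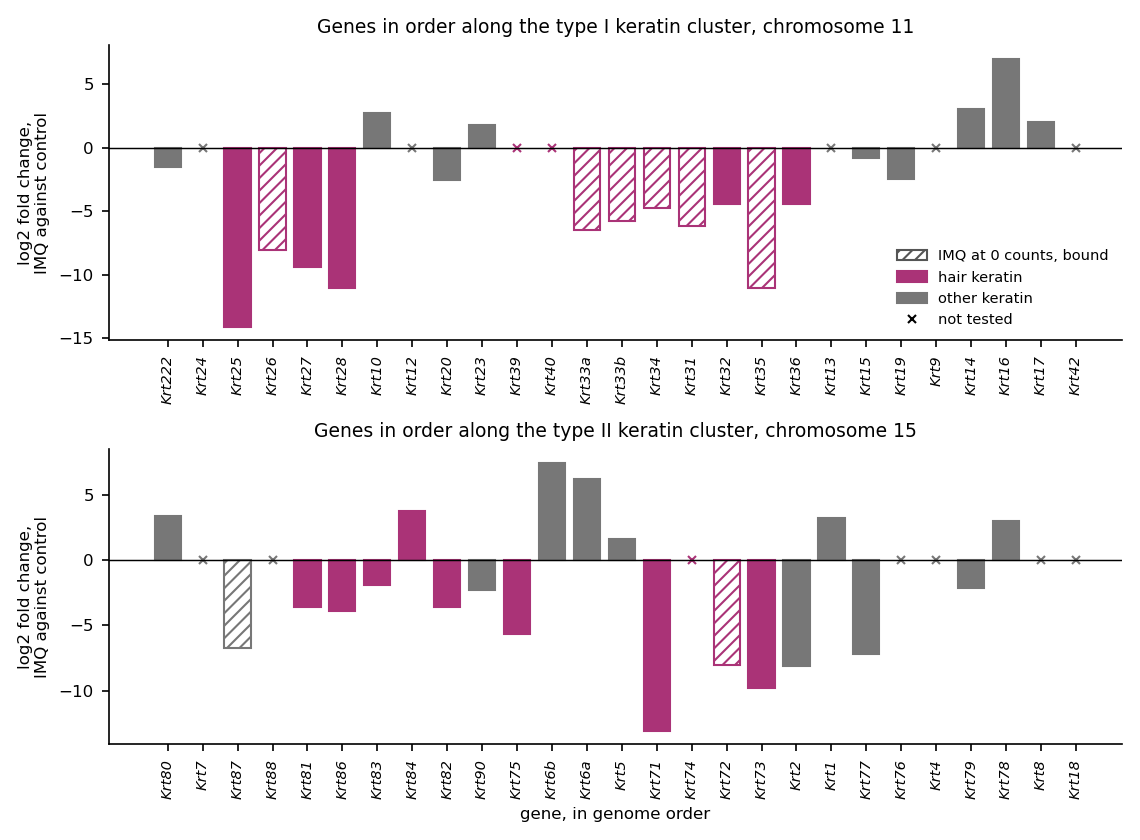
Log2 fold change of IMQ against control for each keratin gene in genome order along the type I cluster (top) and the type II cluster (bottom). Hair keratins are in purple, other keratins in grey, hatched bars are bounds for genes at 0 in IMQ skin, and crosses are genes not tested. The purple bars all point down except Krt84, and grey bars point both ways.

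Other parts of the follicle were read from lists fixed beside the hair set. For the counts in this paragraph, the shares over all genes tested were 26.9% lower and 24.1% higher. Of 40 keratin-associated protein genes, the crosslinkers of the shaft, 12 were tested and all 12 fell, and 37 had no count in any IMQ library. The 40 summed to 22.1 to 52.0 CPM in the control libraries and to 0.298 to 0.879 CPM in the IMQ libraries. The 12 thus passed the filter on low counts through the control libraries, so their count describes the list and is not support for a change. Krtap8-1 and Krtap7-1 had 5.96 ± 3.17 and 3.69 ± 1.78 CPM in control and 0 in IMQ skin. Of 21 hair matrix signalling genes tested, 12 fell and 2 rose (Wnt10a and Jag1). Igf1, a growth factor of the papilla, fell from 188 ± 38.0 to 31.6 ± 18.0 CPM. Shh and Lef1, named after their values were seen, fell from 22.3 ± 2.03 to 0.196 ± 0.184 CPM and from 21.4 ± 5.50 to 0.904 ± 0.701 CPM. Shh is the signal of the growing matrix and Lef1 the Wnt effector that reads CTTTGAA-type sequences. Of 9 dermal papilla genes tested 8 fell and Crabp1 rose, and Wif1 fell from 47.7 ± 8.87 to 3.02 ± 1.97 CPM. Of 12 stem cell and outer root sheath genes 8 fell, Krt15 and Cd34 among them, and 2 rose (Gas1 and Barx2). All 13 proliferation genes and all 7 melanocyte genes tested fell. Lists of other skin parts fell too: all 9 sebaceous gland, 6 adipocyte, 6 fibroblast and 5 endothelial genes, and 7 of 8 skeletal muscle genes. In the other direction, 6 of 7 epidermal keratinocyte genes and all 4 stress keratins rose, and of 6 leukocyte genes 3 rose and 1 fell.

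Another list held 20 differentiation genes that serve hair and, in many cases, epidermis too. Of these 10 rose and 5 fell (Gsdma3, Cux1, Vdr, Trps1 and Selenbp1), against 24.1% higher and 26.9% lower over all genes tested. The share that fell was thus near that of all genes. Tgm3, the transglutaminase that crosslinks trichohyalin and the cornified envelope, rose from 30.2 ± 7.17 to 865 ± 46.7 CPM. Ovol1 rose from 21.7 ± 6.45 to 244 ± 61.0 CPM, Hephl1 from 26.4 ± 6.77 to 226 ± 48.9 CPM, and Hr, the hairless corepressor, from 199 ± 36.6 to 574 ± 142 CPM.

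The comparison of the LYS-High group with the IMQ group asks whether the soup moved these genes away from the IMQ state. No hair gene was called, and no inner root sheath keratin had more than 11 counts in a LYS-High library. Only 11 of the 35 had enough counts for a test, and 12 had no more than 3 counts over each of the 2 groups. Over all 15460 genes tested, 0% were called (0 genes, smallest edgeR adjusted p 0.059), while 35.2% had an unadjusted p under 0.05. DESeq2 called 3345 genes, and 2 of the hair set. Krt71 had 2, 1 and 1 counts in LYS-High 1, 2 and 3, Krt25 had 0, 0 and 2, and Krt27 had 11, 4 and 4. Krt35 had 0, 0 and 1, and Krt31 had none. The sheath keratins summed to 1.17, 0.521 and 0.400 FPKM, which overlapped the IMQ libraries, and lay at 0.0388% of the control mean. The level ratio of IMQ to LYS-High was 1.03 for Krt73 (0.523 to 2.01), 1.32 for Krt27 (0.680 to 2.57), 1.70 for Krt71 (0.404 to 8.21) and 0.284 for Krt28 (0.0514 to 1.05), on 3 counts in IMQ and 12 in LYS-High. Among shaft keratins too low for the test, the counting interval excluded 1 in both directions: it was 0.346 (0.125 to 0.832) for Krt36, 2.63 (1.43 to 5.06) for Krt83, 6.25 (1.36 to 58.0) for Krt32 and 11.4 (1.62 to 493) for Krt81. Single libraries weigh heavily in these ratios, since 26 of the 37 IMQ counts of Krt83 and 9 of the 10 of Krt81 came from IMQ 2, and the intervals leave out the spread between libraries.

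Krt75 had 56, 42 and 18 counts, a log2 difference from IMQ of 0.35 (95% interval -1.03 to 1.73), and Tchh had 351, 517 and 164 counts, a difference of -0.43 (-1.30 to 0.44). Padi3 and Crym lay at -0.13 (-1.70 to 1.43) and 0.76 (-0.50 to 2.02). The intervals of Krt75 and Padi3 pass 1 log2 unit on both sides. That of Tchh passes it only on the lower side and that of Crym only on the upper side. A change of 1 log2 unit in those directions therefore lies inside these intervals. Without LYS-High 1, Krt75 lay at -0.14 and Padi3 at 0.14, so neither has a settled direction.

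At an unadjusted p under 0.05, 3 of the 11 hair genes tested were lower in LYS-High than in IMQ skin and 1 was higher, against 15.9% and 19.3% of all genes tested. Dlx3 had 660, 519 and 496 counts in LYS-High, below all 3 IMQ libraries in CPM (34.6 ± 9.93 against 84.1 ± 23.3), at -1.22 on the log2 scale (standard error 0.26, edgeR adjusted p = 0.059). Its adjusted p was 0.0011 with DESeq2, 0.041 without IMQ 1 and 0.011 without LYS-High 1, but 0.15 to 0.21 when any other library was left out, and over all alternatives it spanned 0.0011 to 0.22. Krt84 had 63, 54 and 145 counts, and LYS-High 3 reached into the IMQ range. It lay at -1.10 (edgeR adjusted p = 0.11), and the alternatives spanned 0.044 (DESeq2) to 0.28 (without IMQ 2). Foxq1 had 311, 319 and 136 counts and lay at -0.87 (edgeR adjusted p = 0.12), with a range of 0.045 (without LYS-High 1, at -1.15) to 0.30 (without IMQ 3) over the alternatives. IMQ and LYS-High libraries were apart in CPM for Dlx3 and Foxq1, 2 of the 11 tested, and for 38.9% of all genes tested.

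Msx1 was the gene in the other direction. It had 29, 69 and 85 counts in LYS-High against 31, 29 and 11 in IMQ skin, with LYS-High 1 inside the IMQ range. The log2 fold change was 1.23 (95% interval 0.09 to 2.36, edgeR adjusted p = 0.12), and without LYS-High 1 it was called, at 1.51 (0.041). Over the alternatives its adjusted p reached 0.33 (without LYS-High 3). Its relative Msx2 had 48, 23 and 12 counts and lay at -0.63 (-2.02 to 0.77). Hoxc13 had 34, 19 and 10 counts (-0.85, -2.10 to 0.41), Foxn1 487, 441 and 237 (-0.65, -1.42 to 0.13), and Foxe1 none. Leaving out IMQ 1 or LYS-High 1 took the number of all genes called from 0 to 1873 or 4262. Of the lists fixed beside the hair set none held a called gene. At an unadjusted p under 0.05, 4 of 6 fibroblast, 4 of 6 adipocyte and 4 of 5 endothelial genes were higher in LYS-High. At that threshold 4 of 6 epidermal keratinocyte genes tested were lower. Of 19 other hair differentiation genes tested, 6 were lower and 2 were higher. The shares over all genes tested were 19.3% higher and 15.9% lower. Only 2 of the 23 hair keratins, Krt75 and Krt84, had enough counts for this test.

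The LYS-High group was also set against the control group, which shares its control libraries with the first comparison. In LYS-High skin 29 hair genes were lower than in control and 2 were higher, Krt84 and Foxq1, with Foxn1 not called. The background was 28.0% of all 16003 genes tested, 12.9% lower and 15.1% higher, and it fell to 2579, 2947 and 2926 genes from 4476 without control 1, control 2 or LYS-High 2. The median log2 fold change over the 32 hair genes tested was -6.80, or -6.13 with the 6 at 0 in LYS-High set to the floor, against -0.01 over all genes. Control and LYS-High libraries were apart in CPM for 31 of the 32, against 50.3% of all genes. Here too many of the 32 passed the filter on low counts through the control libraries alone. The counts and the median therefore describe the set and are not support for a change.

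Krt71 and Krt25 gave control to LYS-High ratios of 15211 (5940.7 to 55829) and 22903 (6339.9 to 189121), on 4 and 2 counts. Krt75 fell by 5.39 on the log2 scale (standard error 0.50, edgeR adjusted p = 0.00062), Tchh fell by 5.32 (0.56, 0.0010), and Hoxc13 fell by 4.52 (0.49, 0.0011). Dlx3, not called in IMQ against control, was lower than control at -1.79 (standard error 0.26, edgeR adjusted p = 0.0028). Krt84 was above control at 2.58 (0.43, 0.0048), with no overlap between libraries.

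Some calls against control changed when 1 library was left out. Foxq1 lay at 1.87 (edgeR adjusted p = 0.015) and was not called without control 1, control 2 or LYS-High 2, where its adjusted p was 0.068, 0.064 and 0.052. Krt83 lay at -3.23 (edgeR adjusted p = 0.037), with adjusted p of 0.051 to 0.12 when any library but LYS-High 1 was left out. Foxn1 lay at 0.91 (95% interval -0.08 to 1.89, edgeR adjusted p = 0.14) and was called higher without LYS-High 3, at 1.20 (0.044).

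The control libraries themselves differed along these genes. Control 3 was the highest of the 3 for 33 of the 35 genes and control 2 the lowest for 30. Over the 31 with more than 100 control counts the median ratio of control 3 to control 2 was 2.38, against 0.996 for 13897 genes at that depth. The ratio was 2.16 for inner root sheath keratins, 3.53 for type I shaft keratins and 1.89 for regulators, and it reached 7.85 for Krt31. The median ratio was 2.88 over 7 keratin-associated protein genes, which are hair genes as well. The gradient was not particular to hair genes: it was 2.77 over the 4 stress keratins (Krt6a, Krt6b, Krt16 and Krt17), all in the same order of libraries. It was 1.66 over 7 melanocyte genes and 1.60 over 7 epidermal keratinocyte genes. Over 19 keratins outside the set, the stress keratins among them, it was 1.58. It spanned 0.757 to 5.30 over 5 leukocyte genes. The median was 1.27 over 9 dermal papilla genes, 1.20 over 9 sebaceous gland genes and 1.14 over 12 stem cell and outer root sheath genes. It was 1.11 over 13 proliferation genes, 0.848 over 6 fibroblast, 0.788 over 8 skeletal muscle, 0.697 over 5 endothelial and 0.346 over 6 adipocyte genes. The SDs of the control values above include this shared gradient. In the treated groups the orders were less uniform: IMQ 2 was highest for 16 of the 22 genes with more than 3 counts in that group, and LYS-High 1 for 12 of 19.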

How the data were processed

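Bulk skin RNA (TRIzol, NEBNext Ultra libraries, Illumina HiSeq) was measured in 9 libraries, 3 each of control, IMQ and LYS-High. The submitters' processing notes name HISAT2, HTSeq 0.13.5 and GRCm38. The authors deposited raw counts per gene, and the authors also deposited FPKM made from them. For 98.4% of 29128 genes the gene length implied by both columns lay within 1 base of the GENCODE M21 exon length. Groups came from the labels. The hair genes and all lists were chosen with earlier results of these data known.

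Counts were tested with edgeR 4.0.16 (R 4.3.3, filterByExpr, TMM, quasi-likelihood test, Benjamini-Hochberg over all genes tested), each fit on the 6 libraries compared, at the thresholds the study states without naming a test. DESeq2 1.42.0, other scalings, no filter, a single fit of all libraries, a replicate block and leaving out each library were tried. The fitting code was tested on simulated data. Ratios of summed counts over effective library sizes carry exact 95% counting intervals. A group at 0 was set to 3 counts over the group (0.0689 CPM in IMQ, 0.0606 in LYS-High). Library values are given for the 3 genes of highest mean FPKM in each class, every regulator and each gene moving against its class, and other lists by counts with up to 4 examples of highest mean FPKM.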

Additional observations from a re-analysis of the deposited data

How the results depend on the processing

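The number of hair genes called in IMQ against control stayed between 29 and 33 over all alternatives, and 3 of them were higher in each. The number of all genes called in LYS-High against IMQ rose from 0 to 3345 with DESeq2, 2419 without the low count filter and 3040 when all 9 libraries were fitted at once, and spanned 0 to 4262 when 1 library was left out. The hair genes called there were 2, 1 and 2 under the first 3 settings and 0 to 3 when 1 library was left out. In LYS-High against control, 2910 genes passed a log2 fold change over 1, and 2579 to 5072 were called when 1 library was left out, against 4476. The causes were not tested. In LYS-High against IMQ, Padi3 reversed to 0.12 under library totals, and when 1 library was left out Padi3 spanned -0.57 to 0.41 and Krt75 -0.14 to 0.78.

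As a share of the control mean, the IMQ sum moved to 90.7% for type II shaft keratins, 3.28% for structural and enzyme genes and 66.0% for regulators in TMM-scaled CPM. Leaving out 1 library gave 41.7% to 80.6% (IMQ) and 21.5% to 45.03% (LYS-High) for type II shaft keratins, 1.83% to 3.14% (IMQ) for structural and enzyme genes and 38.3% to 52.5% (IMQ) for regulators.

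Deviations of same-numbered libraries from their group means had correlations from -0.477 to 0.213, against -0.294 to 0.495 for unlike-numbered ones. With 3 libraries a group these values cannot exclude a pairing, and the labels state none. With the replicate block, 8044 genes and 30 hair genes were called in IMQ against control, 0 and 0 in LYS-High against IMQ, and 3126 and 29 in LYS-High against control, where Foxq1 and Krt83 were no longer called. Low counts in both groups limit the comparison of LYS-High with IMQ. There 24 of the 35 hair genes did not pass the filter on low counts, sheath and shaft keratins among them.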
